A study of Mus musculus with 12 samples.

Results

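Interferon beta (IFN) is a type I interferon. It binds the Ifnar1 and Ifnar2 receptor chains, and through the kinases Jak1 and Tyk2 and the factors Stat2 and Irf9 it turns on interferon-stimulated genes, whose promoters often carry the interferon-stimulated response element (ISRE). Cells that make bone pass from a stage of collagen-rich matrix to one in which alkaline phosphatase, phosphate-handling proteins and acidic bone proteins such as osteopontin, bone sialoprotein and dentin matrix protein deposit and control mineral. Immediate early genes such as Fos and Egr1 are switched on within a short time of a stimulus, without new protein synthesis. The question put to these libraries is how osteoblast-lineage cells changed over a week of further differentiation while IFN was present.

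The comparison is of IFN-treated MC3T3-E1 cells at day 21 with IFN-treated cells at day 14, 2 libraries at each day, which are 4 of the 12 RNA sequencing libraries of the study. MC3T3-E1 is an established mouse preosteoblast line, labelled WT. All groups, controls included, were put through bone differentiation from 2 days after confluence (day 0) in medium with 10% serum. The day 21 and day 14 groups of the IFN arm also received mouse IFN beta at 50 mg/L, as the labels give it, from the start of differentiation, and the control groups at days 21 and 14 did not. The same dose of 50 mg/L is listed for the IFN arm's day 0 libraries, but the labels do not say whether these had been exposed by then. The labels also do not describe the 2 libraries of a group as grown apart, so the p-values measure only the spread between these libraries. Members were chosen by label alone. Of 55291 genes in the table, 16259 passed the low-count filter over the 6 libraries of the IFN arm and were tested.

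The total count was 34605553 and 34863250 in the day 21 libraries, against 35425412 and 29772425 in the day 14 libraries, within the range of 29772425 to 38908453 over all 12. The spread was estimated from the IFN libraries alone, where edgeR's common coefficient of variation was 6.35%, against 38% in the 6 control libraries. Values are CPM, read counts scaled to a common library total by TMM. They are not scaled by gene length and are set side by side only within a gene. Control pairs differed more than IFN pairs at every day. The median standard deviation of log2 CPM within a control pair was 0.292, 0.237 and 0.44 at days 0, 14 and 21. Within an IFN pair it was 0.0839, 0.0877 and 0.111. Control day 21 replicate 2 also stood apart in stress genes. "Called" means a Benjamini-Hochberg adjusted p below 0.05 in edgeR's quasi-likelihood test, and fold changes are log2 of day 21 over day 14 with their SE. These are bulk libraries, so a change in the share of a cell type and a change in RNA per cell cannot be told apart.

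A week between day 14 and day 21 moved many genes by a little and a few by a lot. Dmp1, Nt5e, Fos and Fosb had the highest folds among named genes averaging at least 1 on the log2 CPM scale, 10 of 13 mineralization genes and 15 of 24 heat shock and immediate early genes rose, and 59 of 74 interferon-stimulated genes and 18 of 24 endoplasmic reticulum stress genes fell. In all 4794 genes (29.5%) were called, 2594 higher (16%) and 2200 lower (13.5%) at day 21. Of these, 3080 (64.2%) had an absolute log2 fold change below 0.5, and the median over all tested genes was -0.00382. Counts of called list members below are to be read beside the shares of 29.5%, 16% and 13.5%. Changes of at least 1 in log2 numbered 591 (3.63%), of which 441 were higher and 150 lower. The 2 groups did not overlap for 4793 of the 4794 called genes, while 61.9% of all tested genes did not overlap. Calls rest on the IFN arm's own spread: with the 6 control libraries in the same edgeR fit, 0 genes were called and 1131 (6.54%) had an unadjusted p below 0.05. They numbered 3065 without day 14 replicate 2.

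**Figure D1:**
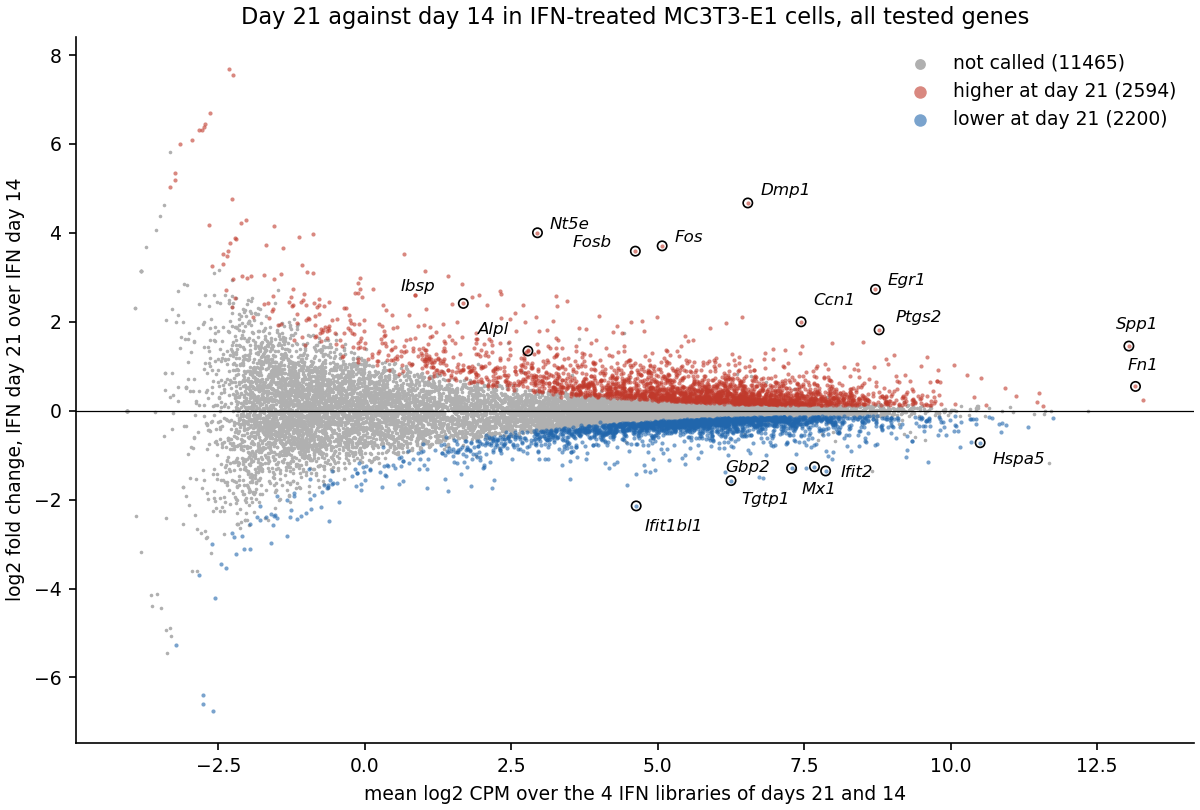
Log2 fold change of day 21 over day 14 (y axis) against mean log2 CPM over the 4 libraries (x axis) for each of the 16259 tested genes. Red points are the 2594 genes called higher and blue points the 2200 called lower at day 21; circled genes are named, with Dmp1, Nt5e, Fos and Fosb standing above the rest of their level range.

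**Figure D2:**
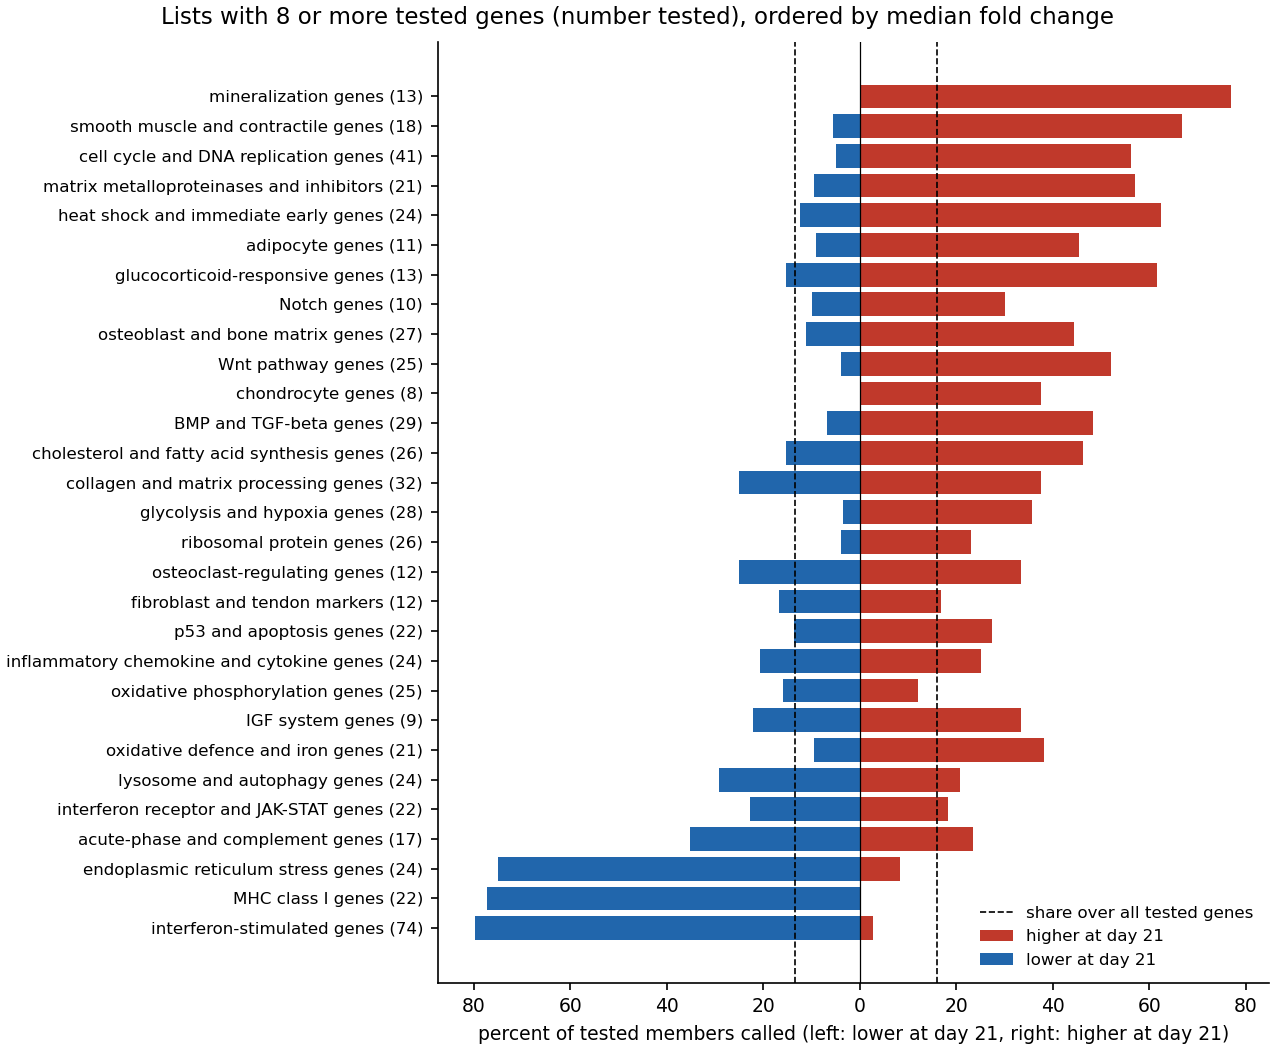
Percent of tested members called higher (right, red) and lower (left, blue) at day 21 in each gene list with 8 or more tested genes, ordered by median fold change. Dashed lines mark the shares over all tested genes, 16% and 13.5%; mineralization genes stand at the top with 76.9% higher, and interferon-stimulated genes at the bottom with 79.7% lower.

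A bone mineral gene had the highest fold among the named genes. Dmp1, dentin matrix protein 1, an acidic phosphoprotein of osteocytes and late osteoblasts that binds mineral and restrains Fgf23 (mm10 chromosome 5, 104202613 to 104214102), was at 464 and 475 CPM in the day 21 libraries, against 15.9 and 21.1 CPM in the day 14 libraries. Both day 21 libraries stood far above both day 14 libraries, and also above the day 0 libraries at 77.8 and 84.5 CPM. The log2 fold change was 4.67 ± 0.11, or 25.5-fold (adjusted p = 7.17e-10). Spp1, osteopontin, a phosphoprotein that binds mineral and limits crystal growth (chromosome 5, 104435118 to 104441050), was at 13610 and 14369 CPM at day 21, against 5084 and 5126 CPM at day 14 (log2 1.45 ± 0.04, adjusted p = 2.97e-21). It was the most abundant bone gene that rose. Ank, a transporter linked to extracellular pyrophosphate, was at 422 and 435 CPM at day 21, against 148 and 149 CPM at day 14 (1.53 ± 0.05, adjusted p = 2.86e-20).

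The enzymes and other acidic proteins of mineralization rose too, at lower counts. Ibsp, bone sialoprotein (chromosome 5, 104299171 to 104311469), was at 9.67 and 6.48 CPM at day 21, against 2.32 and 0.636 CPM at day 14 (log2 2.41 ± 0.49, adjusted p = 0.00559). Its 2 libraries differed within each day, yet the days did not overlap. Alpl, the alkaline phosphatase that frees phosphate for mineral (chromosome 4, 137741733 to 137796384), was at 11.4 and 10.3 CPM at day 21, against 4.34 and 4.22 CPM at day 14 (1.34 ± 0.20, adjusted p = 2.99e-06). Smpd3, a sphingomyelinase needed for bone mineralization in mice, was at 4.19 and 3.39 CPM at day 21, against 1.4 and 0.971 CPM at day 14 (1.66 ± 0.34). Phex, an endopeptidase of osteoblasts and osteocytes tied to phosphate balance, was 1.24 ± 0.33 higher, a call that ended without day 14 replicate 2 (adjusted p = 0.0522). Mgp, matrix Gla protein, an inhibitor of calcification, was at 996 and 1016 CPM at day 21, against 642 and 639 CPM at day 14 (0.65 ± 0.04). The phosphate transporter Slc20a1 rose by a similar amount (0.67 ± 0.06). Thus genes that promote mineral and genes that restrain it both rose. Of 13 tested mineralization genes, 10 were higher and 0 lower, with a median log2 fold change of 0.67.

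Collagen and the bone transcription factors moved far less. Runx2, the master factor of the osteoblast lineage, was at 113 and 113 CPM at day 21, against 98.9 and 96.5 CPM at day 14 (log2 0.21 ± 0.05, adjusted p = 0.00321). Sp7, osterix, which acts downstream of Runx2, was at 18.4 and 17.7 CPM at day 21, against 11.6 and 13.6 CPM at day 14 (0.51 ± 0.14, adjusted p = 0.00431). The groups did not overlap for either gene. The Runx2 call ended without day 14 replicate 2 (adjusted p = 0.0629), and that of Sp7 ended without day 14 replicate 1 (0.112). Col1a1, the main collagen chain of bone, was at 1181 and 1236 CPM at day 21, against 1119 and 1116 CPM at day 14 (0.11 ± 0.04, adjusted p = 0.0543) and was not called. Both days lay far below the day 0 libraries of the IFN arm, where Col1a1 was at 6033 and 6476 CPM. Its partner chain Col1a2 fell slightly (-0.17 ± 0.04), a call that ended without day 14 replicate 1 (adjusted p = 0.0921). The matrix proteins Postn (-0.32 ± 0.05) and Sparc (-0.32 ± 0.05) fell as well. Bglap, osteocalcin, was at 1.38 and 1.44 CPM at day 21, against 0.896 and 0.87 CPM at day 14 (0.67 ± 0.45, adjusted p = 0.286), which was not called. Of 27 tested osteoblast and bone matrix genes, which share members with the mineralization list, 12 were higher and 3 lower (median 0.27, and 0.52 without day 21 replicate 2), and 5 were lower without day 21 replicate 1.

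**Figure D3:**
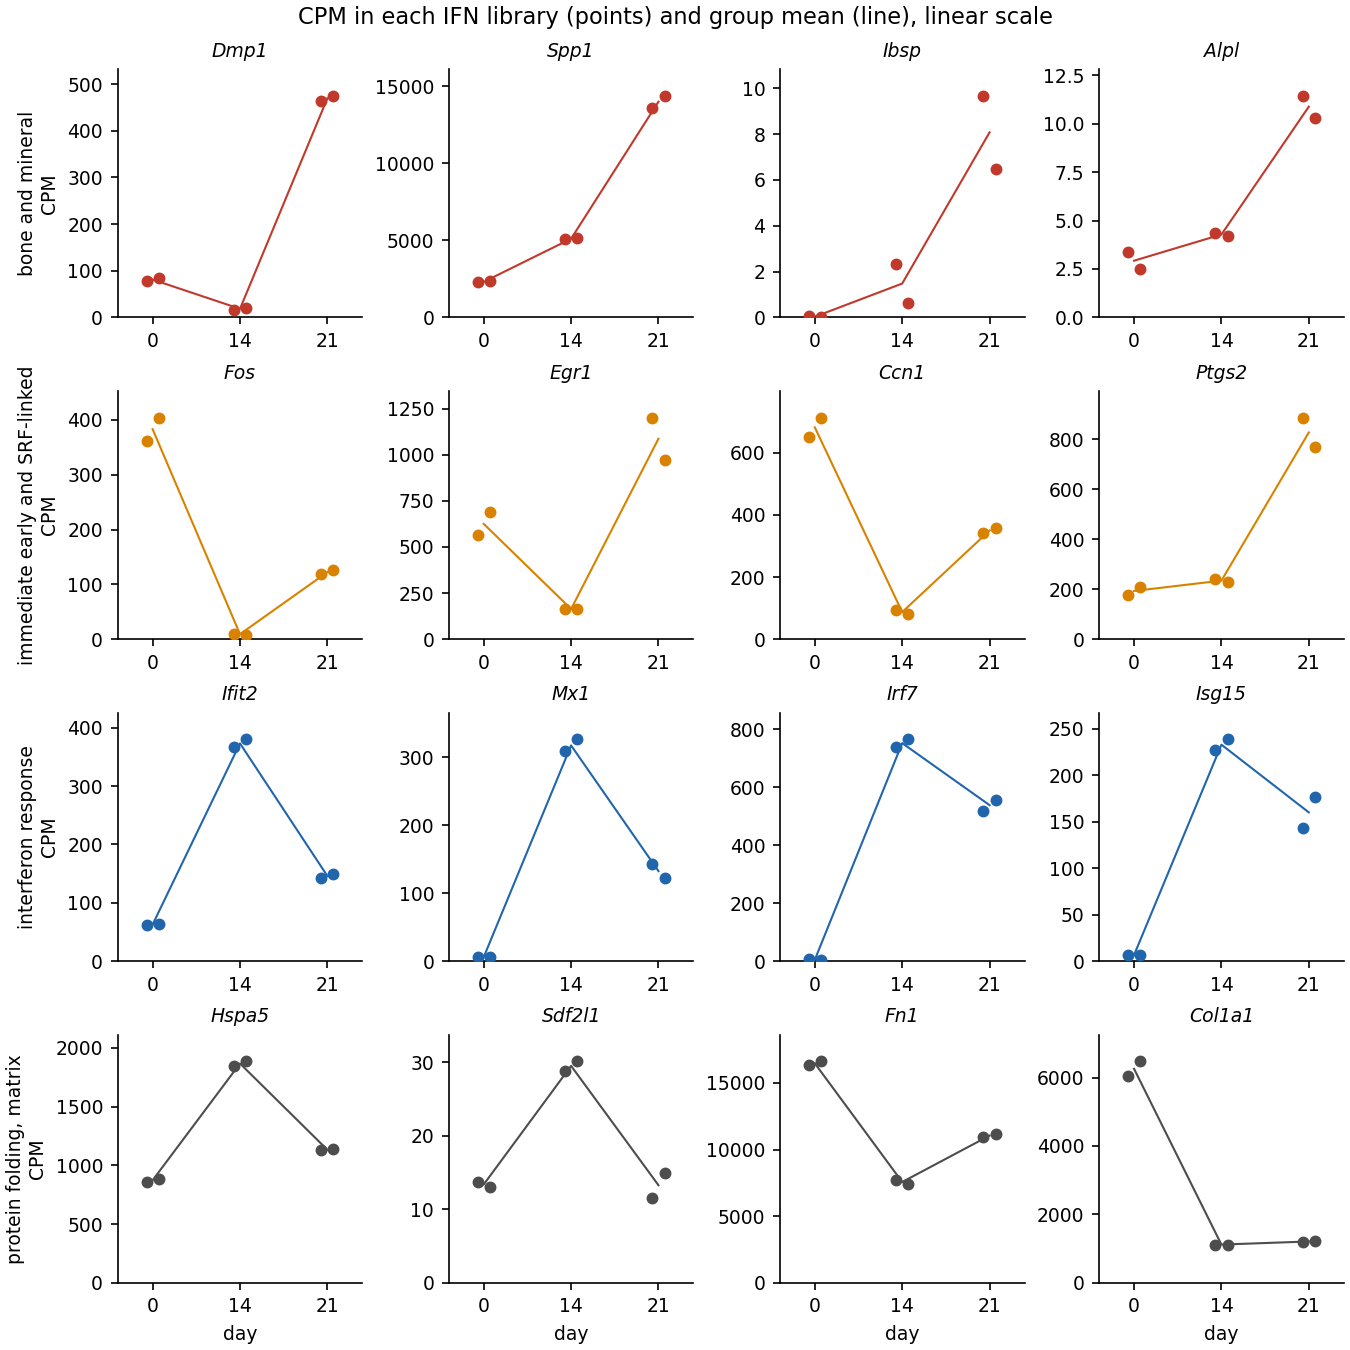
CPM (y axis, linear from 0, its own scale in each panel) in each IFN library at days 0, 14 and 21 (x axis) for 16 genes; points are libraries and lines join group means. Dmp1, Ibsp and Alpl are highest at day 21, Fos and Ccn1 are lowest at day 14, and Ifit2, Mx1 and Hspa5 are highest at day 14.

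Markers of the last stage of the lineage were sparse. Of 7 tested osteocyte genes, 5 were higher and 1 lower, with Dmp1 far ahead of the others, among them Irx5 (log2 0.94 ± 0.09), Pdpn, podoplanin (0.27 ± 0.05), and the actin-capping protein Capg (0.19 ± 0.05). The lower one was Ptprz1, a receptor tyrosine phosphatase, at 0 and 0.0589 CPM at day 21, against 0.224 and 0.301 CPM at day 14 (adjusted p = 0.00749). Without day 14 replicate 2, 3 were higher and 0 lower, as the calls of Phex, Capg (adjusted p = 0.0512) and Ptprz1 ended, and the Ptprz1 call also ended without day 21 replicate 1. Sost, Mepe and Fgf23, which mark mature osteocytes, did not pass the low-count filter. Sost had 4 and 0 counts at day 21, against 0 and 0 counts at day 14. Nt5e, the ecto-enzyme CD73 that makes adenosine outside the cell (chromosome 9, 88327197 to 88372092), was at 28.4 and 32.7 CPM at day 21, against 1.54 and 2.31 CPM at day 14 (4.003 ± 0.21, 16.03-fold, adjusted p = 1.37e-12). Its level at day 0 was 2.16 and 3.65 CPM, so the rise came after day 14. Sox9, the chondrocyte lineage factor named in the study's title (chromosome 11, 112782224 to 112787760), was at 328 and 289 CPM at day 21, against 195 and 186 CPM at day 14 (0.69 ± 0.06, adjusted p = 1.27e-08). Col2a1, the cartilage collagen that Sox9 controls in chondrocytes, was at 14.2 and 20.04 CPM at day 21, against 5.91 and 5.46 CPM at day 14 (1.59 ± 0.17). Of 19 chondrocyte genes 8 passed the low-count filter, and Acan, Col9a1, Col10a1 and Hapln1 did not. Among the 8, 3 were called higher and 0 lower, and by sign alone 4 were positive and 4 negative.

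Immediate early genes rose at day 21 after a low point at day 14. Fos, an AP-1 subunit (chromosome 12, 85473890 to 85477273), was at 119 and 125 CPM in the day 21 libraries, against 10.4 and 8.20 CPM in the day 14 libraries (log2 3.71 ± 0.09, 13.1-fold, adjusted p = 6.15e-16). Its day 0 libraries were higher still, at 362 and 404 CPM. Fosb, a close relative, was at 90.5 and 81.6 CPM at day 21, against 8.34 and 5.79 CPM at day 14 (3.59 ± 0.13). Egr1, a zinc finger factor induced by growth signals, was at 1201 and 973 CPM at day 21, against 163 and 165 CPM at day 14 (2.73 ± 0.17, adjusted p = 0.00187), and here day 21 exceeded day 0, at 563 and 688 CPM. Groups did not overlap for any of the 3 genes, which the rule that named them by fold required. Egr3 (2.57 ± 0.37), Ier2 (2.12 ± 0.11), Egr2 (1.99 ± 0.15), the nuclear receptor Nr4a1 (1.79 ± 0.09) and Jun (0.96 ± 0.05) rose with them. Fos, Fosb and Egr1 also differed widely between control libraries of the same label. In control cells at day 0, Fos was at 2.22 and 407 CPM. Fosb was there at 5.82 and 390 CPM, and Egr1 at 98.3 and 539 CPM. Among 24 tested heat shock and immediate early genes, 15 were higher and 3 lower (median 0.33). Split after the values were seen, these were 14 higher and 0 lower of 15 immediate early genes, Myc being the one not called, and 1 higher and 3 lower of 9 heat shock genes. The one heat shock gene that rose was Hspa1b (0.31 ± 0.09), a call that ended without day 14 replicate 2 (adjusted p = 0.137). Outside the list, the abundant chaperone Hsp90ab1 fell (-0.38 ± 0.04).

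Genes of the contractile cytoskeleton and its regulator rose alongside. Serum response factor, Srf, drives both immediate early and cytoskeletal genes through the CArG box in their promoters. Srf itself was at 96.6 and 97.1 CPM at day 21, against 64.0 and 65.4 CPM at day 14 (log2 0.58 ± 0.06, adjusted p = 2.02e-09). Vcl, vinculin, which links integrins to actin, was at 154 and 161 CPM at day 21, against 96.2 and 93.3 CPM at day 14 (0.73 ± 0.05, adjusted p = 1.34e-12). Ccn1, a secreted matrix protein and a known target of mechanical and YAP signalling, was at 342 and 357 CPM at day 21, against 94.3 and 80.4 CPM at day 14 (2.00 ± 0.07, adjusted p = 1.36e-12). For all 3 genes the days did not overlap and day 0 was higher than day 21. Tpm1, a tropomyosin, was 0.71 ± 0.05 higher. Of 18 tested smooth muscle and contractile genes, 12 were higher and 1 lower (median 0.55, and 0.36 without day 21 replicate 2). The lower one was Acta2, smooth muscle actin (-0.27 ± 0.07), a call that ended without day 14 replicate 2 (adjusted p = 0.0892).

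Promoter stretches of Vcl and Srf are shown because both rose and both hold the CArG box that Srf binds. They are RefSeq sequences of build GRCm38.p6, 5′ to 3′ on the gene's strand, with the boxes in capitals. The Vcl stretch is chr14:20929148-20929237 on the plus strand and the Srf stretch chr17:46556175-46556264 on the minus strand.
Vcl: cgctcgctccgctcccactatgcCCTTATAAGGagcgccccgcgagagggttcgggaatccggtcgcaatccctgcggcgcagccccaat
Srf: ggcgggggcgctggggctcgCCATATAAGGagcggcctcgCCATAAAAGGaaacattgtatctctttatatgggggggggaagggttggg
The box was searched on both strands, apart from any overlap with the ISRE, from 250 bases before to 50 bases after each gene's start. It was found for 4 of 15 contractile genes with a RefSeq window (26.7%), 1 of 10 immediate early genes (10%) and 180 of 11208 tested genes with a window (1.61%). A match is a description of letters and not evidence of binding.

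Interferon-stimulated genes fell, although their summed level stayed above that of day 0. Ifit2, an antiviral RNA-binding protein (chromosome 19, 34550694 to 34576419), was at 142 and 150 CPM in the day 21 libraries, against 367 and 380 CPM in the day 14 libraries (log2 -1.36 ± 0.05, 2.56-fold lower, adjusted p = 1.38e-18). Its day 0 libraries were at 61.8 and 63.4 CPM. Mx1, a GTPase that blocks viral nucleocapsids, was at 143 and 122 CPM at day 21, against 308 and 326 CPM at day 14 (-1.26 ± 0.06), with 5.53 and 6.08 CPM in the day 0 libraries. Gbp2, a guanylate-binding protein of cell-autonomous defence (chromosome 3, 142620602 to 142638008), was at 96.8 and 102 CPM at day 21, against 245 and 243 CPM at day 14 (-1.30 ± 0.05, adjusted p = 6.84e-18). These genes had high day 14 libraries that lay close together and did not overlap day 21. Parp14 (-1.08 ± 0.05) and Ifit3b (-1.02 ± 0.05) fell by about the same amount, and Isg15, a ubiquitin-like modifier, fell less. Isg15 was at 144 and 176 CPM at day 21, against 227 and 238 CPM at day 14 (-0.54 ± 0.08, adjusted p = 0.00019).

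Across the list the fall was broad and modest. Of 74 tested interferon-stimulated genes, 59 were lower and 2 higher, and 10 of the 59 were at least 1 lower in log2. The median of the list was -0.63, against -0.00382 over all tested genes. Summed over the list, members took 14330 and 14310 CPM in the day 21 libraries, against 22550 and 22740 CPM in the day 14 libraries. At day 0 the sum was 1964 and 1852 CPM. The 2 that rose were Ifi27 (0.70 ± 0.09) and Ifi27l2a (0.42 ± 0.09). Ifi27 is unlike the others in being higher at day 0 (74.0 and 68.1 CPM) than at either later day. Trim25 (0.06 ± 0.05) and Oasl1 (0.03 ± 0.09), a ubiquitin ligase and an OAS-like protein, were not called. Outside the list, the lowest folds by rule included the interferon-inducible genes Ifit1bl1 (-2.14 ± 0.11), Tgtp2 (-1.37 ± 0.08), Gbp10 (-1.39 ± 0.10) and Ifi214 (-1.33 ± 0.11). Reads of close copies such as Tgtp1 and Tgtp2, Ifit3 and Ifit3b, or the Gbp and Ifi200 genes may be split by the counting.

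Some central members did not pass in the fit that includes day 0. The reason was not tested. Irf7, the factor that amplifies type I interferon responses (chromosome 7, 141262706 to 141266481), was at 519 and 558 CPM at day 21, against 740 and 765 CPM at day 14, with no overlap. The day 0 libraries, at 5.62 and 3.17 CPM, entered the same estimate of spread, and the log2 fold change of -0.48 ± 0.15 had an adjusted p = 0.108. With only the 4 libraries of days 14 and 21 it passed (adjusted p = 6.44e-08). Oasl2 was at 606 and 599 CPM at day 21, against 953 and 963 CPM at day 14 (adjusted p = 0.181, and 1.12e-10 with the 4 libraries). Rsad2, viperin, was at 177 and 162 CPM at day 21, against 264 and 272 CPM at day 14 (adjusted p = 0.0744, and 1.55e-09 with the 4 libraries). With the 4 libraries alone, 67 members were lower and 2 higher.

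**Figure D4:**
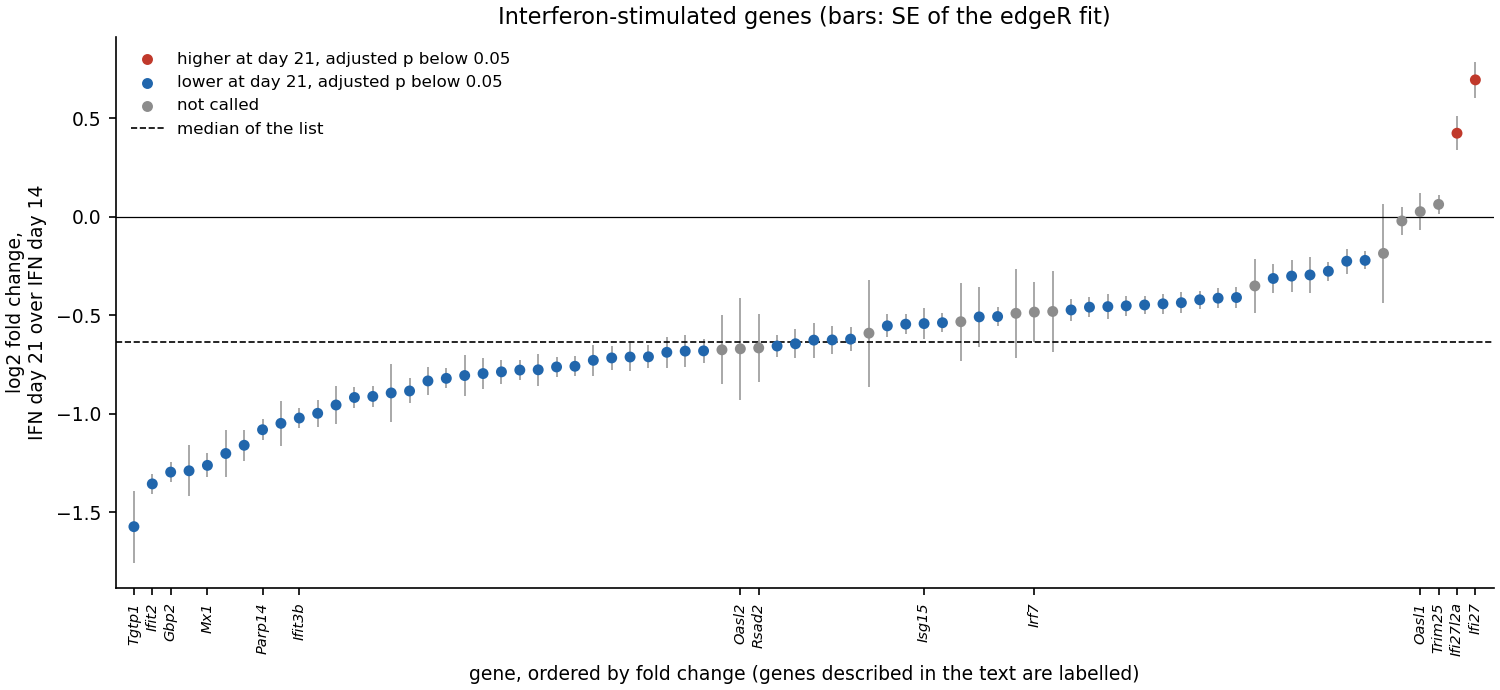
Log2 fold change of day 21 over day 14 (y axis) for the 74 tested interferon-stimulated genes, ordered along the x axis, with the genes described in the text labelled; bars are the SE of the edgeR fit and the dashed line is the list median of -0.63. Blue points are the 59 genes called lower, red points Ifi27 and Ifi27l2a, and gray points were not called, several of them with wide bars.

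Promoter stretches are shown for a few of the genes that fell, because they hold the core letters of the ISRE. The letters searched were GAAANNGAAA, on both strands and with overlapping matches counted, in the same RefSeq windows. The stretches are of build GRCm38.p6, 5′ to 3′ on the gene's strand, with matches in capitals. They lie at chr4:156200835-156200924 on the minus strand (Isg15), chr3:142620564-142620653 on the plus strand (Gbp2), chr19:34607763-34607852 on the plus strand (Ifit3b), chr11:48992274-48992363 on the minus strand (Tgtp1) and chr11:49064233-49064322 on the minus strand (Tgtp2).
Isg15: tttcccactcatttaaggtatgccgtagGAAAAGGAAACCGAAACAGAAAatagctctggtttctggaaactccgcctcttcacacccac
Gbp2: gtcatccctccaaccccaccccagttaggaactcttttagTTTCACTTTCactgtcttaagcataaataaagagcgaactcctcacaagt
Ifit3b: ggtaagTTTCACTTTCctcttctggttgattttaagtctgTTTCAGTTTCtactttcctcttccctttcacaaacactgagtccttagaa
Tgtp1: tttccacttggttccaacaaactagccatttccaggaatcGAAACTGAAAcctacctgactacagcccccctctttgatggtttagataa
Tgtp2: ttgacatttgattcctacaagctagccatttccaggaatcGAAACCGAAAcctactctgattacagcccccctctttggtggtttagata
The Isg15 stretch holds 3 overlapping matches and the Ifit3b stretch holds 2 apart from each other, while Gbp2 and both Tgtp genes have 1. Of 58 tested interferon-stimulated genes with a window, 31 (53.4%) held the letters, as did 26 of the 47 called lower (55.3%) and 420 of 11208 tested genes (3.75%). No match says only that these letters are absent from the window.

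Genes that present peptides on MHC class I fell with the antiviral genes. Psmb10, an immunoproteasome subunit, was at 16.2 and 18.2 CPM at day 21, against 46.2 and 42.3 CPM at day 14 (log2 -1.37 ± 0.10, adjusted p = 6.72e-12). Tapbp, tapasin, which loads peptide, was at 256 and 266 CPM at day 21, against 456 and 454 CPM at day 14 (-0.80 ± 0.05, adjusted p = 2.86e-14). H2-T22, a nonclassical class I gene, was -0.57 ± 0.05. B2m, the shared light chain, was at 3297 and 3404 CPM at day 21, against 3346 and 3371 CPM at day 14, and these overlapped (adjusted p = 0.967). Of 22 tested genes 17 were lower and 0 higher (median -0.44). Reads of the H2 genes may be shared between family members.

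Called genes of the interferon receptor and JAK-STAT list showed no common direction. Of the list 18.2% were higher and 22.7% lower, against 16% and 13.5% of all tested genes. Besides Ifnar1 and Ifnar2, the list members given are those called with the smallest adjusted p. Values for Jak1, Tyk2, Stat2 and Irf9 are not given here. Ifnar1 was at 62.4 and 55.2 CPM at day 21, against 74.2 and 64.9 CPM at day 14 (log2 -0.24 ± 0.07, adjusted p = 0.01055), a call kept in 4 of the 6 leave-one-out fits. Ifnar2 was at 35.8 and 34.7 CPM at day 21, against 35.6 and 39.1 CPM at day 14, where the days overlapped (adjusted p = 0.545). Jak2 (-0.31 ± 0.06), Irf1 (-0.46 ± 0.08) and Stat6 (-0.50 ± 0.05) fell, and Socs2, a feedback inhibitor of cytokine receptors, rose (0.36 ± 0.08). In the whole list of 22 tested genes, 4 were higher and 5 lower (median -0.0581), and 1 was higher without day 14 replicate 2. The chemokine gene Cxcl10, itself interferon-inducible, was at 70.7 and 66.0 CPM at day 21, against 128 and 136 CPM at day 14 (-0.95 ± 0.07, adjusted p = 7.89e-12).

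Chaperones of the endoplasmic reticulum fell together. Hspa5, its main chaperone, also called BiP (chromosome 2, 34771970 to 34777547), was at 1127 and 1137 CPM at day 21, against 1846 and 1886 CPM at day 14 (log2 -0.72 ± 0.04, adjusted p = 6.71e-14), with day 0 at 862 and 884 CPM. Sdf2l1, a cofactor of BiP, was at 11.6 and 15 CPM at day 21, against 28.9 and 30.2 CPM at day 14 (-1.15 ± 0.12). The cochaperone Dnajc3 (-0.53 ± 0.05), the calcium-binding chaperone Calr (-0.54 ± 0.05) and the stress-induced factor Ddit3, or CHOP (-0.61 ± 0.05), fell too. Of 24 tested endoplasmic reticulum stress genes, 18 were lower and 2 higher (median -0.33). The 2 that rose were the sensor Atf6 (0.29 ± 0.05) and Edem1 (0.27 ± 0.06), which directs misfolded glycoproteins to degradation; the Edem1 call ended without day 14 replicate 1 (adjusted p = 0.0588). Serpinh1, the collagen chaperone, was at 938 and 979 CPM at day 21, against 1331 and 1303 CPM at day 14 (-0.46 ± 0.04).

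More cell cycle genes were called higher than lower at day 21, but their summed level was raised in only 1 library. The list summed to 3160 and 3605 CPM in the day 21 libraries, against 3175 and 3284 CPM in the day 14 libraries. Ube2c, a ubiquitin-conjugating enzyme of mitotic exit, was at 30.5 and 35.5 CPM at day 21, against 16.2 and 14.3 CPM at day 14 (log2 1.11 ± 0.11, adjusted p = 2.35e-09). Ccnb1, cyclin B1, was at 28.4 and 40.7 CPM at day 21, against 16.0 and 17.7 CPM at day 14 (1.03 ± 0.14). The proliferation marker Mki67 was at 91.0 and 129 CPM at day 21, against 61.6 and 62.8 CPM at day 14 (adjusted p = 0.0643) and was not called, as its 2 day 21 libraries differed. The same held for Top2a (adjusted p = 0.15), at 117 and 173 CPM at day 21, against 91.9 and 94.0 CPM at day 14. Of 41 tested cell cycle and replication genes, 23 were higher and 2 lower (median 0.48). Without day 21 replicate 2 the median was 0.28, and 15 and 14 were higher without day 14 replicate 1 and replicate 2.

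In the signalling lists of the bone niche, more genes rose than fell, though about as many or more were not called. In the Wnt list 13 of 25 tested genes were higher and 1 lower (median 0.26), with ligands, a receptor and a secreted inhibitor among them. Wnt4 was at 4.10 and 5.45 CPM at day 21, against 1.76 and 1.21 CPM at day 14 (log2 1.67 ± 0.32), and Wnt5b was 1.34 ± 0.26 higher. Wif1, which binds and blocks Wnt ligands, was at 9.85 and 5.54 CPM at day 21, against 2.91 and 2.11 CPM at day 14 (1.61 ± 0.29). Lgr4, a receptor for R-spondins, rose by less (0.53 ± 0.10). In the BMP and TGF-beta list 14 of 29 were higher and 2 lower (median 0.23). Tgfb1, the ligand, was at 141 and 133 CPM at day 21, against 71.0 and 74.6 CPM at day 14 (0.91 ± 0.06, adjusted p = 3.39e-13). Its receptor gene Tgfbr1 rose (0.58 ± 0.05), as did Id1, a direct target of BMP signals (0.77 ± 0.06). Grem1, a secreted BMP antagonist, was at 487 and 461 CPM at day 21, against 252 and 247 CPM at day 14 (0.93 ± 0.05, adjusted p = 1.89e-15). Of 10 Notch genes 3 were higher (30%) and 1 lower (10%), against 16% and 13.5% of all tested genes. The ligand Jag1 (0.77 ± 0.06) and the target Hes1 (0.91 ± 0.09) were among those that rose. The lower genes of these lists numbered 0 to 2 for Wnt, 1 to 4 for BMP and TGF-beta and 0 to 1 for Notch when single libraries were left out.

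Secreted factors that act on neighbouring cells rose and fell. Ptgs2, the inducible cyclooxygenase COX-2 (chromosome 1, 150100031 to 150108227), was at 886 and 767 CPM at day 21, against 241 and 228 CPM at day 14 (log2 1.82 ± 0.09, 3.53-fold, adjusted p = 1.91e-06). Lif, a cytokine of the interleukin 6 family, was at 99.1 and 86.5 CPM at day 21, against 39.4 and 44.6 CPM at day 14 (1.15 ± 0.08). Vegfa, the angiogenic factor, was at 1085 and 959 CPM at day 21, against 509 and 517 CPM at day 14 (0.99 ± 0.05). In each of these 3 genes both day 21 libraries were above every day 14 and day 0 library. Igfbp4, which binds insulin-like growth factors, was 1.03 ± 0.06 higher, while Igf1 fell (-0.55 ± 0.12). Cxcl12, which retains blood progenitors in marrow, fell (-0.54 ± 0.06), and Tnfsf10, the death ligand TRAIL, fell by more (-1.09 ± 0.17). Tnfsf11, which encodes RANKL, the main osteoclast-inducing ligand, did not pass the low-count filter, with 0 and 6 counts at day 21, against 0 and 0 at day 14. Of 12 osteoclast-regulating genes 4 were higher and 3 lower, and of 24 inflammatory genes 6 were higher and 5 lower. Among 17 acute-phase and complement genes 4 were higher and 6 lower, with Hp, haptoglobin, higher (1.34 ± 0.22) and Saa3 lower (-1.53 ± 0.13).

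Matrix genes outside fibrillar collagen changed in both directions. Fn1, fibronectin (chromosome 1, 71585520 to 71653200), was at 10959 and 11137 CPM at day 21, against 7680 and 7451 CPM at day 14 (log2 0.55 ± 0.04, adjusted p = 1.67e-12). Thbs1, thrombospondin 1, which can activate latent TGF-beta, was at 286 and 256 CPM at day 21, against 109 and 110 CPM at day 14 (1.30 ± 0.05, adjusted p = 1.59e-17). Plau, the urokinase that generates plasmin, was at 35.2 and 34.5 CPM at day 21, against 11.4 and 9.04 CPM at day 14 (1.76 ± 0.10). Adamts4, an aggrecan-cutting protease, was 1.01 ± 0.07 higher. Timp1, a metalloproteinase inhibitor, was at 178 and 190 CPM at day 21, against 329 and 371 CPM at day 14 (-0.93 ± 0.06, adjusted p = 9.81e-13). Of 21 tested metalloproteinase and inhibitor genes 12 were higher and 2 lower (median 0.41), with 7 higher without day 14 replicate 2. Of 32 collagen and matrix processing genes 12 were higher and 8 lower (median 0.0914).

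Hormone, lipid and iron genes included some large changes. Txnip, a thioredoxin-binding protein that restrains glucose uptake, was at 68.3 and 63.2 CPM at day 21, against 197 and 175 CPM at day 14 (log2 -1.50 ± 0.07, adjusted p = 1.07e-11). Angptl4, an inhibitor of lipoprotein lipase, was at 13.0 and 9.55 CPM at day 21, against 2.58 and 2.85 CPM at day 14 (2.06 ± 0.22). Fabp4, the fatty acid carrier of adipocytes and macrophages, was at 26.3 and 40.8 CPM at day 21, against 8.20 and 7.10 CPM at day 14 (2.13 ± 0.18), and the lipid droplet protein Plin2 was 0.65 ± 0.04 higher. Apod, an apolipoprotein, fell (-1.48 ± 0.21), a call that ended without either day 0 library (highest adjusted p = 0.0536). Slc40a1, ferroportin, the exporter of iron, rose (1.75 ± 0.12). The abundant ferritin heavy chain Fth1 was at 10990 and 10643 CPM at day 21, against 9303 and 9115 CPM at day 14 (0.23 ± 0.04). Sgk1, a kinase induced by glucocorticoids, was at 1098 and 1105 CPM at day 21, against 726 and 657 CPM at day 14 (0.67 ± 0.05), whereas Tsc22d3, another glucocorticoid target, fell (-0.44 ± 0.05). Of 11 adipocyte genes 5 were higher and 1 lower. Of 13 glucocorticoid-responsive genes 8 were higher and 2 lower. Of 21 oxidative defence and iron genes 8 were higher and 2 lower (5 higher without day 14 replicate 2, and 0 lower without day 14 replicate 1), and of 9 genes of the IGF system 3 were higher and 2 lower.

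Energy, housekeeping and lipid synthesis lists had small median changes. Among 28 glycolysis and hypoxia genes 10 were higher and 1 lower (median 0.0907), a count of higher genes that was 6 without day 14 replicate 2 and 17 without day 21 replicate 1. Egln3, an oxygen-sensing hydroxylase, rose (log2 1.41 ± 0.15). Of 25 oxidative phosphorylation genes 3 were higher and 4 lower (28% called, close to the 29.5% of all tested genes). These counts turned on single libraries: 6 were higher and 0 lower without day 21 replicate 1, 2 higher and 0 lower without day 14 replicate 2, and 1 lower without day 14 replicate 1. Of 26 ribosomal protein genes 6 were higher and 1 lower (26.9% called, median 0.0811). The ribosomal count of higher genes was 2 with library size as the only scaling and 15 without day 21 replicate 1. It was 1 without either day 14 library and 2 without day 21 replicate 2. Of 26 cholesterol and fatty acid synthesis genes 12 were higher and 4 lower (median 0.21), with Insig1 (0.55 ± 0.07) and Scd1 (0.52 ± 0.05) higher and Fasn lower (-0.35 ± 0.05); 6 were higher without day 14 replicate 1, and 2 lower without day 14 replicate 2. Of 24 lysosome and autophagy genes 5 were higher and 7 lower, led upward by the protease Ctsl, at 1629 and 1658 CPM at day 21, against 917 and 957 CPM at day 14 (0.81 ± 0.04). Of 22 p53 and apoptosis genes 6 were higher and 3 lower (3 higher without day 14 replicate 1, and 5 lower without day 21 replicate 1), with the p53 inhibitor Mdm2 higher (0.44 ± 0.05) and the necroptosis effector Mlkl lower (-0.54 ± 0.07).

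Marker lists of other cell types differed widely in summed level. Fibroblast and tendon markers summed to 3165 and 3293 CPM at day 21, against 3460 and 3336 CPM at day 14. Of 12 tested, 2 were higher (16.7%) and 2 lower (16.7%), against 16% and 13.5% of all tested genes. Adipocyte genes summed to 1973 and 1948 CPM at day 21, against 1599 and 1543 CPM at day 14. Of that list, Pparg, Adipoq and Plin1 did not pass the low-count filter. Chondrocyte genes summed to 369 and 325 CPM at day 21, against 230 and 218 CPM at day 14. Of 11 endothelial and epithelial markers, 5 passed the filter and 1, Tek, was called (lower, adjusted p = 0.0423). The Tek call was kept in 2 of the 6 leave-one-out fits and not with the 4 libraries of days 14 and 21 (adjusted p = 0.0622), and with DESeq2 or limma voom 0 of the list were called. The list summed to 3.67 and 5.65 CPM at day 21, against 4.63 and 5.37 CPM at day 14. Skeletal muscle markers summed to 2.51 and 2.30 CPM at day 21, against 1.55 and 1.98 CPM at day 14. Lymphocyte markers summed to 28.9 and 34.0 CPM at day 21, against 28.7 and 29.9 CPM at day 14, and Cd3e, Cd79b, Ms4a1 and Nkg7 had at most 1 count in any of the 6 IFN libraries. Pax5, a B cell factor on that list, was at 8.88 and 14 CPM at day 21, against 7.31 and 6.13 CPM at day 14 (log2 0.76 ± 0.20, adjusted p = 0.00456), a call kept in 4 of the 6 leave-one-out fits. Macrophage and osteoclast markers summed to 520 and 481 CPM at day 21, against 572 and 559 CPM at day 14. Nearly all of that was the protease Ctsk, which was 496 and 460 CPM at day 21, against 538 and 528 CPM at day 14, while Ptprc, Adgre1 and Tyrobp had at most 2 counts. Of the 6 tested members 2 were higher, Cd68 (log2 0.71 ± 0.20) and Cd14 (0.38 ± 0.13), and 2 lower, Lyz2 (-0.76 ± 0.14) and Ctsk (-0.16 ± 0.05). Without day 14 replicate 2 or day 21 replicate 2, 0 were higher and 1 lower, and without day 14 replicate 1, 1 and 1. Of 33 osteoblast and bone matrix genes, 27 passed the low-count filter, and Dlx3, Ifitm5, Sost, Mepe, Fgf23 and Dkk1 did not. Runx2, Sp7, Col1a1, Spp1 and Alpl of that list were detected in all 4 libraries. Bglap was low, at 0.87 to 1.44 CPM.

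Whether the same week did something different without IFN was asked by the difference between the arms. Over 17289 genes tested in all 12 libraries, edgeR called 0 (0%) for the difference, with 1315 genes (7.61%) at an unadjusted p below 0.05 and a lowest adjusted p of 0.498. The median SE of the difference was 0.473, against 0.121 for the fold change within the IFN arm, so differences of the size seen for most genes were not detectable. DESeq2 called 31, 23 higher and 8 lower with IFN. The count was 2584 without control day 21 replicate 1, which leaves control day 21 replicate 2 as the only library of its group, and 0 without control day 21 replicate 2.

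Values for single genes show how the 2 arms lay. Dmp1 was at 56.1 and 6.11 CPM in control cells at day 21, against 47.3 and 4.34 CPM in control cells at day 14, so its replicates differed more than its days (difference between arms 4.40 ± 1.48, adjusted p = 0.652). For Fos the change had the same sign in the control arm (log2 3.27 ± 1.87), where day 21 was at 3.65 and 198 CPM and day 14 at 4.24 and 16.6 CPM. The high control value was that of day 21 replicate 2. Egr1 in control cells was likewise at 70.9 and 2287 CPM at day 21, against 54.7 and 69.4 CPM at day 14. Hspa5 was at 959 and 25678 CPM in control cells at day 21, against 1143 and 884 CPM in control cells at day 14 (difference between arms -4.43 ± 1.35, adjusted p = 0.652). In that library, control day 21 replicate 2, stress and immediate early genes stood apart together. Its part in the values of single genes was not tested.

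Interferon-stimulated genes of control cells were mixed in sign. Over the 74 members the median log2 fold change in the control arm was 0.09, with 41 above 0 and 0 called by edgeR, beside the median of -0.63 with IFN. Ifit2 had a control value of -0.41 ± 0.32 and Mx1 one of 0.46 ± 0.59. Irf7 was at 13.7 and 10.7 CPM in control cells at day 21, against 3.17 and 6.72 CPM in control cells at day 14 (log2 1.30 ± 0.33; difference between arms -1.78 ± 0.46, adjusted p = 0.652). Isg15 was at 17.3 and 22.6 CPM in control cells at day 21, against 3.51 and 11.1 CPM in control cells at day 14 (1.45 ± 0.57; difference -1.99 ± 0.78, adjusted p = 0.652). Cxcl10 was at 12.5 and 33.7 CPM in control cells at day 21, against 2.04 and 5.24 CPM in control cells at day 14 (2.66 ± 0.49; difference -3.60 ± 0.67, adjusted p = 0.652). In each of these last 3 genes both control libraries of day 21 were above both of day 14 and below the IFN libraries of either day, so the arms moved toward each other in value. None of these changes passed in the control arm, where 5 genes were called.

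**Figure D5:**
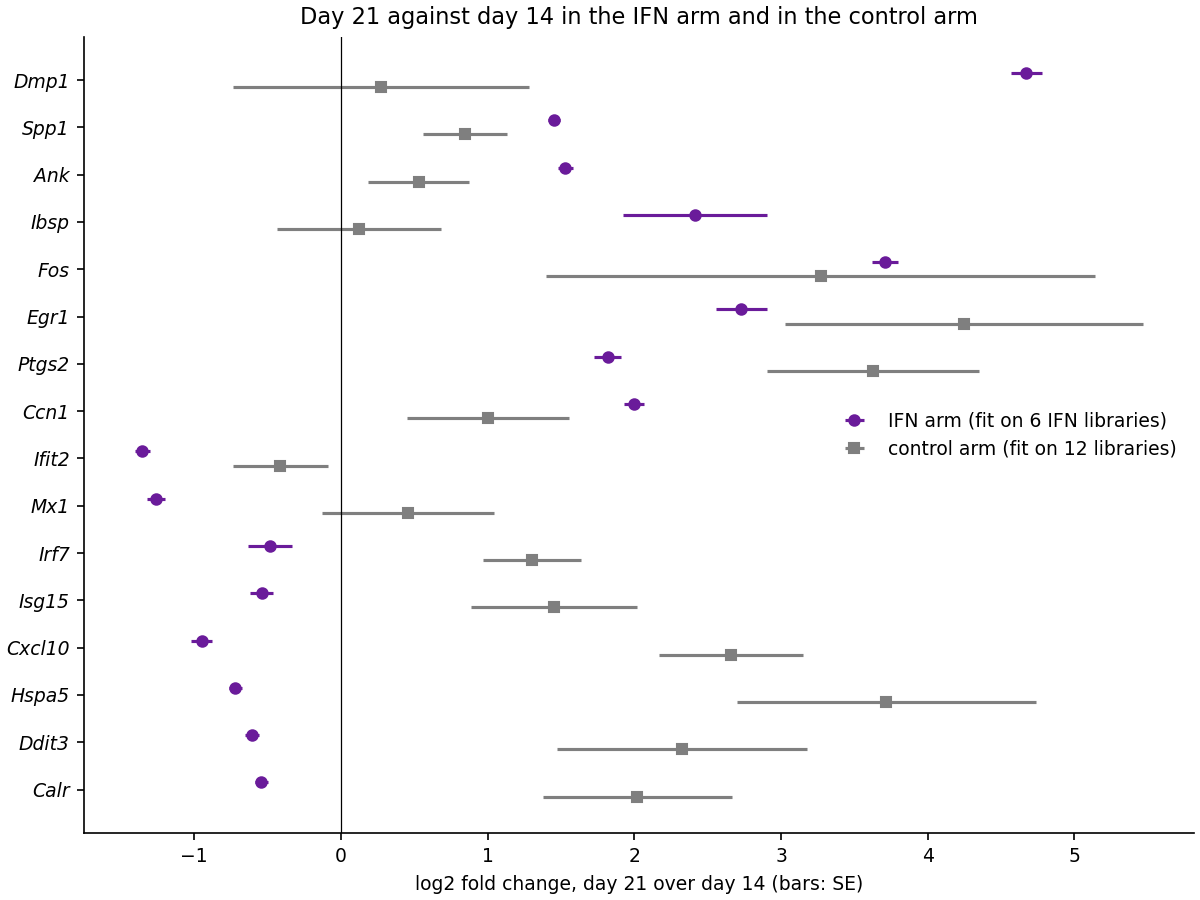
Log2 fold change of day 21 over day 14 (x axis) with its SE for 16 genes in the IFN arm (purple circles, fit on 6 libraries) and the control arm (gray squares, fit on 12 libraries). Bone genes lie further right with IFN, interferon genes lie left with IFN, and most control SE are several times wider. Exceptions are Ibsp (0.56 in the control arm against 0.49) and Irf7 (0.33 against 0.15). None of the 16 differences between the arms was called.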

How the data were processed

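The deposited table holds raw read counts per gene for the 12 libraries; per the submitters' processing notes, the authors aligned reads with HISAT2 to mm10 and used SAMtools and featureCounts. The annotation and the use of strand are not given in the sources used here, so overlapping and antisense genes are uncertain. Genes, lists and tests were chosen with earlier results of these data known.

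The 6 IFN libraries were fitted in R 4.3.3 with edgeR 4.0.16 (filterByExpr, TMM, 1 mean per day, robust quasi-likelihood test with 3 residual degrees of freedom), after tests on simulated data. The difference between arms was fitted on all 12 libraries (6 residual degrees of freedom). Log2 CPM used a prior count of 2. Replicate numbers did not pair the days. Alternatives were RLE or library-size scaling, DESeq2 1.42.0, limma 3.58.1 voom, other filters, fewer or more libraries, a replicate block, a fold limit and each library left out.

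Named genes are Ifnar1, Ifnar2, Sox9, Runx2, Sp7, Alpl, Bglap, Ibsp, Col1a1, Irf7, Isg15 and Pax5, the 12 called genes with the most positive and the 12 with the most negative fold change (average log2 CPM 1 or more, days not overlapping), the 6 most abundant called in each direction, and up to 4 called members per list by adjusted p. Predicted or unnamed genes (295 of those called) were counted only. Chosen after their values were seen were Smpd3, Phex, Sparc, Ier2, Egr2, Hspa1b, Acta2, Mx1, Ifit3, Ifi27, Ifi27l2a, Trim25, Oasl1, Oasl2, Rsad2, B2m, Sdf2l1, Atf6, Edem1, Ptprz1, Myc, Ccnb1, Mki67 and Top2a, and the genes below the filter. Some genes that these rules name are not reported here. Positions are from GENCODE M21, which holds 53292 of the symbols, and promoters from RefSeq.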

Additional observations from a re-analysis of the deposited data

How the results depend on the processing

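The count of 4794 called genes lay between 4206 and 5023 with RLE scaling, library size alone, DESeq2, limma voom, no filter, a filter of 1 CPM in 2 libraries, the 4 libraries of days 14 and 21, or a replicate block (4963; deviations of same-numbered libraries correlated at -0.011 to 0.019). With library size alone 45% of calls were higher, against 54.1%. With all 12 libraries it was 0, and 591 past 1 in absolute log2 fold change. Leaving out 1 library gave 3065 to 4861, the lowest without day 14 replicate 2; the group of 1 is then assumed to vary like the others. The difference between arms called 0 in edgeR and limma fits, replicate block included, 31 with DESeq2, and 0 to 2584 leaving out 1 library, the highest without control day 21 replicate 1. No named gene changed sign. Of 154 named genes, 150 no longer passed with all 12 libraries and 96 with the fold limit. Leaving out 1 library ended at most 15 of their calls. The 2 libraries per group limit every spread given here.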

Other observations

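Several of the strongest changes lay outside the gene lists. Jam2, a junctional adhesion molecule, rose by 2.60 ± 0.26 in log2 (edgeR adjusted p = 3.41e-09). Padi2, an enzyme that converts arginine to citrulline, was at 7.77 and 7.63 CPM at day 21, against 1.23 and 0.603 CPM at day 14 (3.04 ± 0.36). The adaptor gene Fyb and the exchange factor gene Dock8, both best known in blood cells, rose by 2.85 ± 0.28 and 2.63 ± 0.38, while Ptprc, which marks blood cells in general, had at most 2 counts in any IFN library. The carboxylesterase Ces1f rose by 2.70 ± 0.23. At the other end, Btnl6 was at 2.70 and 2.18 CPM at day 21, against 9.18 and 7.13 CPM at day 14 (-1.74 ± 0.23), and Nat8f3 was at 2.20 and 1.68 CPM at day 21, against 7.17 and 5.29 CPM at day 14 (-1.69 ± 0.22). Being named by fold required that the 2 days did not overlap, which 61.9% of all tested genes also met.

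Abundant genes moved by small amounts with narrow errors. Lrp1, a large endocytic receptor, was at 3329 and 3395 CPM at day 21, against 2551 and 2542 CPM at day 14 (0.40 ± 0.04), and Col6a3, a chain of collagen VI, was 0.19 ± 0.04 higher, a call that ended without day 14 replicate 1 (edgeR adjusted p = 0.0523). Ahnak, a giant scaffold protein, was at 1577 and 1584 CPM at day 21, against 2170 and 2222 CPM at day 14 (-0.47 ± 0.04). The autophagy receptor Sqstm1 (-0.27 ± 0.04) and the interferon-inducible surface protein Ly6e (-0.29 ± 0.05) fell. Eef2, the translation elongation factor, was called higher (0.12 ± 0.04, edgeR adjusted p = 0.0472), a call kept in 1 of the 6 leave-one-out fits.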
